A study of Drosophila melanogaster with 4 samples.

Results

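The cuticle protein genes are the rows of the gene table whose symbol starts with Cpr, Ccp, Lcp, Pcp, Acp65, Edg or Twdl, and 47 of the 10626 genes in the table met that rule. Of these, 36 are Cpr genes named by their cytological position, 4 belong to the Ccp84A group, 3 are Tweedle genes (Twdl) and 1 each carries the prefix Lcp, Acp65 or Edg. The remaining row is Cpr itself, which encodes the cytochrome P450 reductase, an electron donor of P450 enzymes and not a cuticle protein. It shares only its letters with the others and is given apart. The annotation of release 115 holds 126 genes that the rule would take, and the rest of those have no row in the gene table. Only 1 of 17 annotated Lcp genes and 3 of 26 Twdl genes have a row, pseudogenes included, and 0 of the 8 on the X chromosome.

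The libraries are mRNA-Seq of indirect flight muscle (IFM), the fibrillar muscle of the thorax. It was dissected from 1 d adult Drosophila melanogaster, taken within the first day after eclosion and grown at 27 °C. The 2 genotypes were compared, with 2 libraries each, and each library pooled the IFM of 100 flies. The bru1M3 flies carry a splice-trap cassette inserted into bru1, the gene of the RNA-binding protein Bruno 1, a truncation allele present in every cell of the fly and not in muscle alone. The w1118 flies are the control strain. Nothing in the sources says that the 2 libraries of a genotype came from separate cultures. The p-values therefore weigh differences against a spread between libraries that may be technical.

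Insect cuticle is an apical extracellular matrix of chitin fibres and proteins that epidermal cells secrete and later harden. Most Cpr, Ccp, Lcp, Acp and Edg proteins carry the Rebers and Riddiford motif, which binds chitin, whereas Tweedle proteins form a separate family of cuticle proteins. Different members are made for the larval, pupal and adult cuticle, and the mix changes over the moult and in the first days of adult life as new cuticle is laid down and tanned. Muscle itself makes no cuticle, but flight muscles end on tendon cells, which are specialised epidermal cells under the thoracic cuticle, and are entered by tracheae, whose lumen is lined with cuticle. In pooled tissue, fewer cells of a type and less RNA per cell cannot be told apart.

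Recovered reads numbered between 30384053 and 34105524 per library, of which mitochondrial genes took 41.2% and 29.0% in bru1M3 but 72.6% and 63.7% in w1118. This left 19999967 and 21962285 reads of nuclear genes in bru1M3 IFM, against 8326712 and 12395680 in w1118 IFM, so low genes were read less deeply in w1118. A single read was worth 0.682 and 0.769 normalized counts in the bru1M3 libraries and 1.70 and 1.10 in the w1118 libraries. The bru1 gene had 10618 and 9976 normalized counts in bru1M3, against 1807 and 1386 in w1118, a value over all its exons that does not test whether the transcript is truncated. All 6 flight muscle markers, among them the flight muscle actin Act88F, were tested, and together they made up 156455 and 186866 reads per 1000000 nuclear reads (nuclear RPM) in bru1M3 and 137761 and 146377 in w1118. Library w1118 replicate 1 stood apart in photoreceptor genes: the 9 listed summed to 37.0 and 52.7 nuclear RPM in bru1M3, against 335 and 59.7 in w1118.

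Cuticle protein transcripts were scarce but present in every library. Without Cpr, the 46 genes gave 6577 and 7462 reads in bru1M3 IFM and 5218 and 7541 reads in w1118 IFM. The median gene had 19 and 32 reads in the bru1M3 libraries and 12.5 and 23.5 in the w1118 libraries. Among these 46 genes, 12 and 12 had under 10 reads in the bru1M3 libraries, against 20 and 8 in the w1118 libraries. Many values below therefore rest on few reads, and 5 of the 47 members did not reach 10 normalized counts in at least 2 of the 4 libraries and were not tested.

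**Figure D1:**
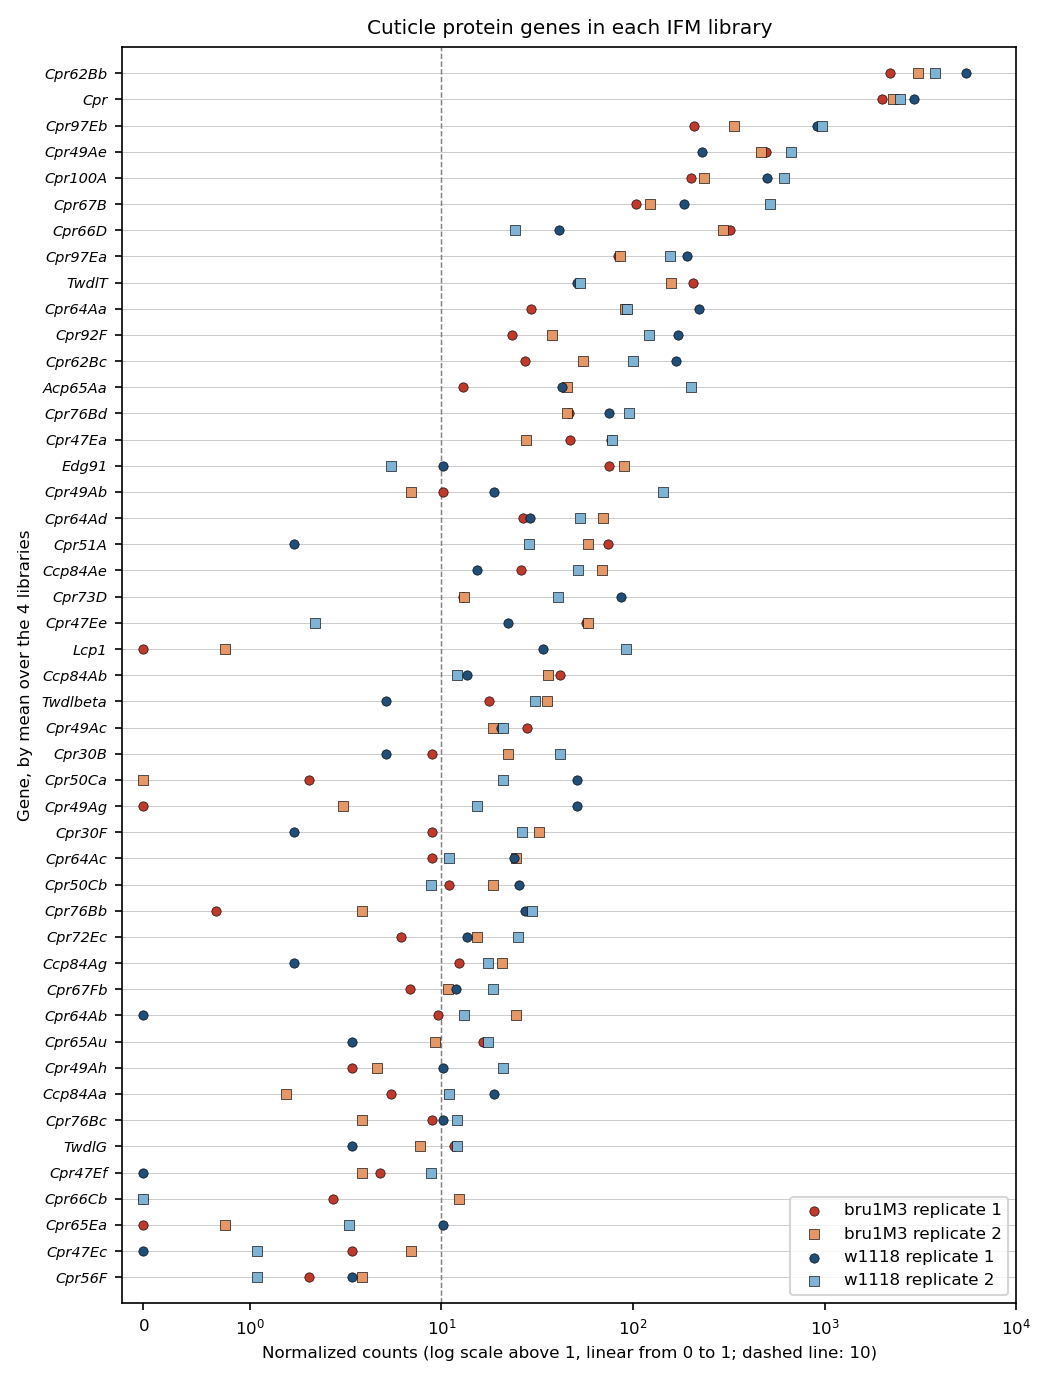
Normalized counts of all 47 genes in each library (x axis, log above 1 and linear from 0 to 1; 1 point per library, genes ordered by their mean, dashed line at the filter value of 10). Cpr62Bb lies highest in all 4 libraries, and the bru1M3 points of Cpr66D (320 and 295) and Edg91 (75.1 and 89.2) stand clear of the w1118 points.

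Per kilobase of exon, the transcripts were dominated by Cpr62Bb, a chitin-binding family gene on 3L (1832636 to 1835164, BDGP6), with a mean of 172 reads per kilobase of exon per 1000000 nuclear reads in bru1M3 and 336 in w1118. On the same per-length scale Cpr97Eb followed in w1118, with a mean level of 16.7 in bru1M3 and 64.2 in w1118. Cpr100A had a per-length level of 10.4 in bru1M3 and 29.2 in w1118, and Cpr49Ae 26.7 in bru1M3 and 27.7 in w1118. Cpr66D, at a per-length level of 18.5 in bru1M3 and 2.11 in w1118, thus lay close to Cpr97Eb in bru1M3 and far below it in w1118. Cpr62Bb alone took 48.7% and 53.3% of the cuticle protein reads in bru1M3, against 61.8% and 45.8% in w1118, so its share overlapped between the genotypes. Acp65Aa, an adult cuticle protein gene, had a per-length level of 2.96 in bru1M3 and 14.5 in w1118, above that of Lcp1, a larval cuticle protein gene, at 0.021 in bru1M3 and 4.31 in w1118.

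**Figure D2:**
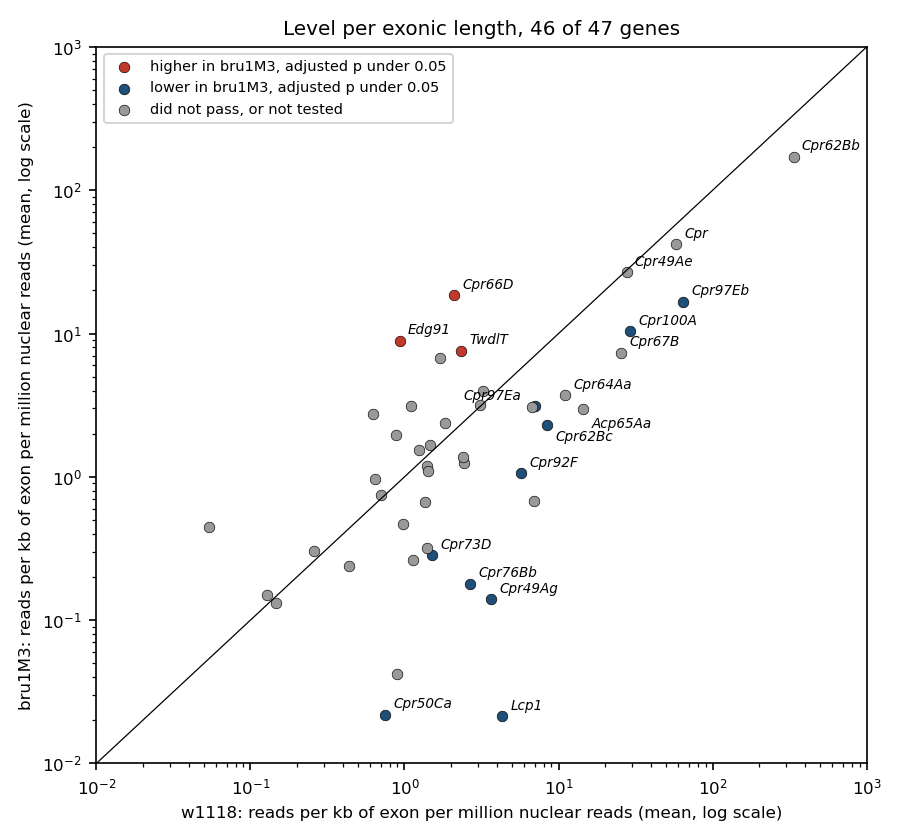
Mean level of 46 of the 47 genes in reads per kilobase of exon per 1000000 nuclear reads, with w1118 on the x axis and bru1M3 on the y axis (both log, n = 2 libraries a genotype). The diagonal marks equal levels, and Cpr66Cb is left out because both w1118 libraries are at 0. Most abundant members lie under the diagonal, with Cpr66D, Edg91 and TwdlT above it.

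The comparison of bru1M3 with w1118 asks whether transcript levels in IFM differ between flies with this bru1 allele and the control strain. Among the 42 tested members, 3 were higher in bru1M3 (Cpr66D, Edg91 and TwdlT) and 10 were lower (Lcp1, Cpr50Ca, Cpr49Ag, Cpr76Bb, Cpr92F, Cpr73D, Cpr97Eb, Cpr62Bc, Cpr100A and Cpr97Ea), by limma on log2(normalized count + 1) at an adjusted p under 0.05. That is 7.14% higher and 23.8% lower, where 12.8% of the 9228 genes tested were higher, 9.33% were lower and 22.2% passed in either direction. These shares are not matched for level. Over all tested genes, 4.26% were higher and 3.26% lower under a mean of 20 normalized counts. From 20 to 100 the shares were 5.06% and 5.53%, and at 100 or more 17.86% and 12.05%. These bands held 16, 16 and 10 members, of which 0, 1 and 2 were higher and 3, 4 and 3 lower. The log2 fold changes of the members had a median of -0.77 and quartiles of -1.70 and 0.56, beside a median of -0.00 and quartiles of -0.53 and 0.55 over all tested genes. Both bru1M3 libraries lay below both w1118 libraries for 21 members and above them for 6, where 31.6% and 32.9% of all tested genes did so and 64.5% did not overlap on either side. On the recovered reads, edgeR called 3 members higher and 12 lower (13.2% and 9.71% of all tested genes), and DESeq2 called 4 higher and 14 lower (13.3% and 10.9%).

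The direction of the members was therefore mixed. Of the 10 lower members, 4 (Lcp1, Cpr50Ca, Cpr49Ag and Cpr76Bb) passed the filter only through the w1118 libraries. These 4 were tested only because w1118 was high, so they add no support to the share of 23.8% lower. Of the 29 members not called, 3 passed the filter that way, and 0 passed it only through bru1M3. The calls among the members changed when 1 library was left out, and only Cpr97Eb was called in every such fit. Each of these fits kept 1 library in a genotype and called fewer genes of the whole table too. A loss of calls there is therefore not particular to the members. The median log2 fold change of the members stayed negative in these fits, from -0.86 to -0.35.

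**Figure D3:**
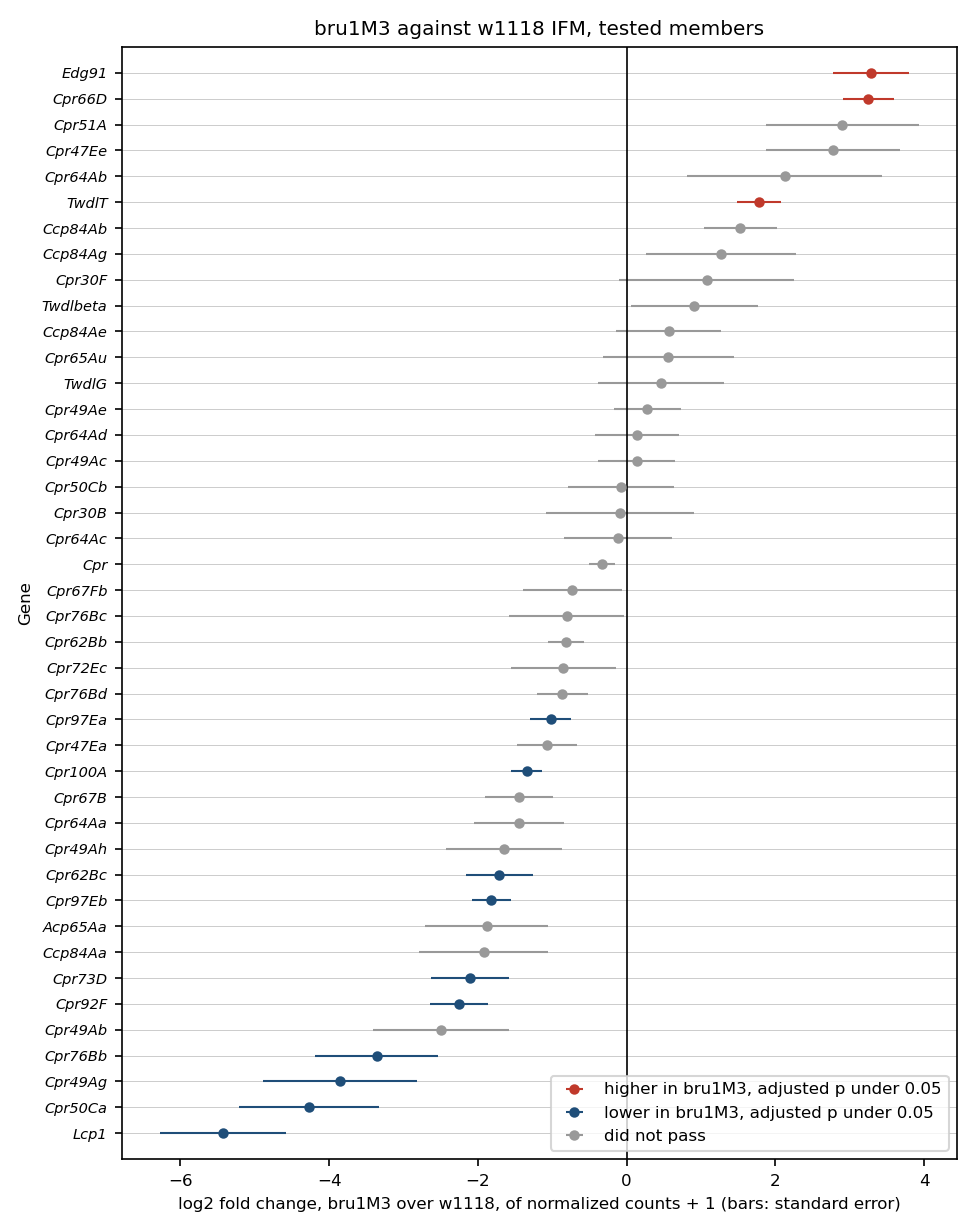
Log2 fold change of bru1M3 over w1118 for the 42 tested members, on normalized counts + 1, with bars of 1 standard error. The 3 higher members lie between 1.78 and 3.28, the 10 lower ones between -5.42 and -1.02, and many members that did not pass have wide bars.

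Among the abundant members, the pair Cpr97Ea and Cpr97Eb, neighbours on 3R (27083130 to 27087778 and 27089704 to 27091130), were both lower. Cpr97Eb had 208 and 338 normalized counts in bru1M3, against 912 and 963 in w1118, which gave a log2 fold change of -1.82 with a standard error of 0.26 (limma adjusted p = 0.00316). Further errors of log2 fold changes after ± are standard errors as well. Cpr97Ea had 83.3 and 85.4 in bru1M3 and 191 and 156 in w1118 (log2 fold change -1.02 ± 0.27, limma adjusted p = 0.0356). The genotypes did not overlap for either gene, and Cpr97Eb was the only member whose call held under every alternative run, at adjusted p up to 0.0313. Cpr100A, on 3R at 30867521 to 30869184, had 201 and 235 normalized counts in bru1M3, against 502 and 611 in w1118 (log2 fold change -1.35 ± 0.21, limma adjusted p = 0.00519). Its replicates lay close together in both genotypes, with means of 218 ± 23.5 in bru1M3 and 557 ± 77.3 in w1118 (SD, n = 2 each).

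Cpr92F and Cpr62Bc showed the same pattern at lower levels. Cpr92F, on 3R at 20669571 to 20672821, had 23.2 and 37.7 normalized counts in bru1M3 and 172 and 122 in w1118 (log2 fold change -2.25 ± 0.39, limma adjusted p = 0.00746). Cpr62Bc, on 3L at 1840281 to 1842084, had 27.3 and 54.6 in bru1M3 and 167 and 99.7 in w1118 (log2 fold change -1.71 ± 0.45, limma adjusted p = 0.0343). Neither gene overlapped between the genotypes. Cpr73D, on 3L at 16939100 to 16957689, had 13.0 and 13.1 in bru1M3 and 86.8 and 40.5 in w1118 (log2 fold change -2.11 ± 0.53, limma adjusted p = 0.0294). Its exons overlap the gene annotated as Ogdh on the opposite strand, listed as Nc73EF in the files, and whether strand was used in counting is not given in the sources used here. Nc73EF, at 34734 and 63442 normalized counts in bru1M3 and 50375 and 57370 in w1118, did not pass the test (limma adjusted p = 0.704).

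The largest negative fold changes came from members that were close to undetected in bru1M3. Lcp1, a larval cuticle protein gene on 2R (8430115 to 8431243), had 0 and 0.769 normalized counts in bru1M3, that is 0 reads and 1 read, against 34.0 and 92.0 in w1118 (log2 fold change -5.42 ± 0.85, limma adjusted p = 0.00495). Cpr50Ca, on 2R at 13769915 to 13787802, had 2.05 and 0 in bru1M3 and 51.1 and 20.8 in w1118 (log2 fold change -4.27 ± 0.94, limma adjusted p = 0.0188). The w1118 libraries of both genes were all above both bru1M3 libraries, although they differed from each other by more than 1 on the log2 scale. Cpr49Ag had 0 and 3.08 normalized counts in bru1M3, against 51.1 and 15.3 in w1118 (log2 fold change -3.85 ± 1.04, limma adjusted p = 0.0373). Cpr76Bb had 0.682 and 3.85 in bru1M3, against 27.2 and 29.6 in w1118 (log2 fold change -3.36 ± 0.82, limma adjusted p = 0.0270). These bru1M3 values are near the level of 3 reads, 2.05 and 2.31 normalized counts in the bru1M3 libraries, so the fold changes depend on the added 1 and are imprecise.

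The 3 members that rose in bru1M3 were Cpr66D, Edg91 and TwdlT, none of them next to another member. Cpr66D, on 3L at 8640439 to 8643584, had 320 and 295 normalized counts in bru1M3, against 40.8 and 24.1 in w1118 (log2 fold change 3.25 ± 0.34, limma adjusted p = 0.000812). Its means were 307 ± 18.0 in bru1M3 and 32.5 ± 11.8 in w1118 (SD, n = 2 each), and the genotypes were far apart relative to either SD. Edg91, a glycine-rich cuticle protein gene first found as ecdysone-dependent, lies on 3R at 17610856 to 17611511 and had 75.1 and 89.2 in bru1M3, against 10.2 and 5.48 in w1118 (log2 fold change 3.28 ± 0.51, limma adjusted p = 0.00479). TwdlT, a Tweedle gene on 3R at 27049220 to 27051004, had 205 and 158 in bru1M3, against 51.1 and 52.6 in w1118 (log2 fold change 1.78 ± 0.30, limma adjusted p = 0.00651). All 3 were also higher by edgeR and by DESeq2 on the recovered reads. TwdlT lies on the same arm as the Cpr97E pair and moved the other way. The other Tweedle genes, Twdlbeta and TwdlG, named here after their values were seen, overlapped between the genotypes, with log2 fold changes of 0.91 and 0.47.

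Cpr62Bb, the most abundant member, did not pass the threshold. It had 2186 and 3058 normalized counts in bru1M3, against 5488 and 3782 in w1118, and the log2 fold change was -0.82 ± 0.24 (limma adjusted p = 0.0525). Both bru1M3 libraries were below both w1118 libraries, but the replicates of each genotype were also spread, with means of 2622 ± 616 in bru1M3 and 4635 ± 1207 in w1118 (SD, n = 2 each). DESeq2 on the recovered reads gave Cpr62Bb an adjusted p of 0.0114, within a range of 0.00486 to 0.276 over the alternatives. Cpr49Ae, with 491 and 462 in bru1M3 and 230 and 670 in w1118, did not separate the genotypes (log2 fold change 0.28 ± 0.45, limma adjusted p = 0.694). Cpr67B had 104 and 122 in bru1M3 and 184 and 519 in w1118 (log2 fold change -1.45 ± 0.46, limma adjusted p = 0.0615). On the recovered reads, Cpr67B was called lower by edgeR (adjusted p = 0.0385) and by DESeq2 (adjusted p = 0.00155). Here the distance between the w1118 libraries was larger than that from w1118 replicate 1 to either bru1M3 library.

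Several further members had a large fold change with an error to match. Acp65Aa, the adult cuticle protein gene, had 13.0 and 45.4 normalized counts in bru1M3 and 42.5 and 202 in w1118, so the genotypes overlapped (log2 fold change -1.88 ± 0.83, limma adjusted p = 0.146). Cpr49Ab had 10.2 and 6.92 in bru1M3 and 18.7 and 142 in w1118 (log2 fold change -2.49 ± 0.91, limma adjusted p = 0.0925). Cpr64Aa had 29.3 and 90.7 in bru1M3 and 220 and 93.1 in w1118 (log2 fold change -1.45 ± 0.61, limma adjusted p = 0.131). The w1118 libraries lay far apart for Cpr49Ab, and for Acp65Aa and Cpr64Aa the libraries of both genotypes did. Cpr47Ea had 47.1 and 27.7 in bru1M3 and 76.6 and 77.8 in w1118, and Cpr76Bd had 46.4 and 45.4 in bru1M3 and 74.9 and 95.3 in w1118. Both were below w1118 without overlap but did not pass, with log2 fold changes of -1.07 ± 0.40 and -0.87 ± 0.34 (limma adjusted p = 0.0975 and 0.113). The exons of Cpr47Ea overlap the odorant receptor gene Or47a on the opposite strand.

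In the other direction, Cpr51A had 73.7 and 58.4 normalized counts in bru1M3, against 1.70 and 28.5 in w1118 (log2 fold change 2.90 ± 1.03, limma adjusted p = 0.0862). Cpr47Ee had 56.6 and 58.4 in bru1M3, against 22.1 and 2.19 in w1118 (log2 fold change 2.77 ± 0.90, limma adjusted p = 0.0666). The w1118 libraries were far apart for both genes and in opposite order, and the bru1M3 libraries lay closer together. Cpr64Ab had 9.55 and 24.6 in bru1M3 and 0 and 13.1 in w1118, and Cpr30F had 8.87 and 32.3 in bru1M3 and 1.70 and 26.3 in w1118. Both genes overlapped between the genotypes (log2 fold changes 2.13 ± 1.31 and 1.08 ± 1.18, limma adjusted p = 0.284 and 0.552). Cpr, the cytochrome P450 reductase gene on 2L, had 1995 and 2279 in bru1M3 and 2931 and 2476 in w1118 (log2 fold change -0.34 ± 0.17, limma adjusted p = 0.206).

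Of the 5 members too low to test, Cpr66Cb and Cpr65Ea reached 10 normalized counts in a library. Cpr66Cb had 2.73 and 12.3 in bru1M3 and 0 in both w1118 libraries. With w1118 set at 3 reads over the group, the bru1M3 mean would be 3.58-fold higher. That ratio leaves out the error of the bru1M3 reads, 4 and 16. Cpr65Ea had 0 and 0.769 in bru1M3, against 10.2 and 3.29 in w1118. The 2 genes thus leaned opposite ways at a handful of reads, and neither difference was tested. The remaining 3 stayed under 10 normalized counts in all libraries.

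The replicates of 1 genotype often lay far apart for these genes. The w1118 replicates differed by at least 1 on the log2 scale for 21 of the 42 tested members (50%), where 12.0% of all tested genes did so, and the bru1M3 replicates for 14 members (33.3%), where 8.70% did so. Over all tested genes, the replicates differed by at least 2 on the log2 scale for 1.5% in bru1M3 and 3.32% in w1118. In w1118 these were 306 genes, of which 209 were higher in replicate 2. At the same difference there was 1 member in bru1M3 (2.38%), Cpr49Ag, and 10 in w1118 (23.8%), of which 9 were higher in w1118 replicate 2. Those 9 were Cpr64Ab, Cpr51A, Cpr30F, Cpr49Ab, Cpr30B, Ccp84Ag, Twdlbeta, Acp65Aa and Cpr65Au, and the tenth, Cpr47Ee, was higher in w1118 replicate 1. Cpr30B, Ccp84Ag and Cpr65Au are named here after their values were seen. None of the 10 passed the limma test of genotype with all 4 libraries, but DESeq2 on the recovered reads called Cpr49Ab and Acp65Aa lower and Cpr47Ee higher, and edgeR called Cpr49Ab lower. The spread that picked these 10 also enters the error of the limma test, which empirical Bayes moderates over all genes. Their not passing therefore says little about genotype.

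The wide spread was not limited to the lowest genes. Among members averaging 100 normalized counts or more, the median absolute log2 difference between replicates was 0.227 in bru1M3 and 0.414 in w1118, beside 0.260 and 0.214 over all tested genes at that level. Among members with means from 20 to 100, it was 0.626 in bru1M3 and 0.960 in w1118, beside 0.434 and 0.479. Under a mean of 20 it was 1.22 in bru1M3 and 1.35 in w1118, beside 0.666 and 0.842. Members therefore varied more between the w1118 libraries than other genes of the same level did, a difference given here as a description. The part of w1118 replicate 1 in this spread, beyond its excess of photoreceptor transcripts and its low nuclear read number, was not tested.

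**Figure D4:**
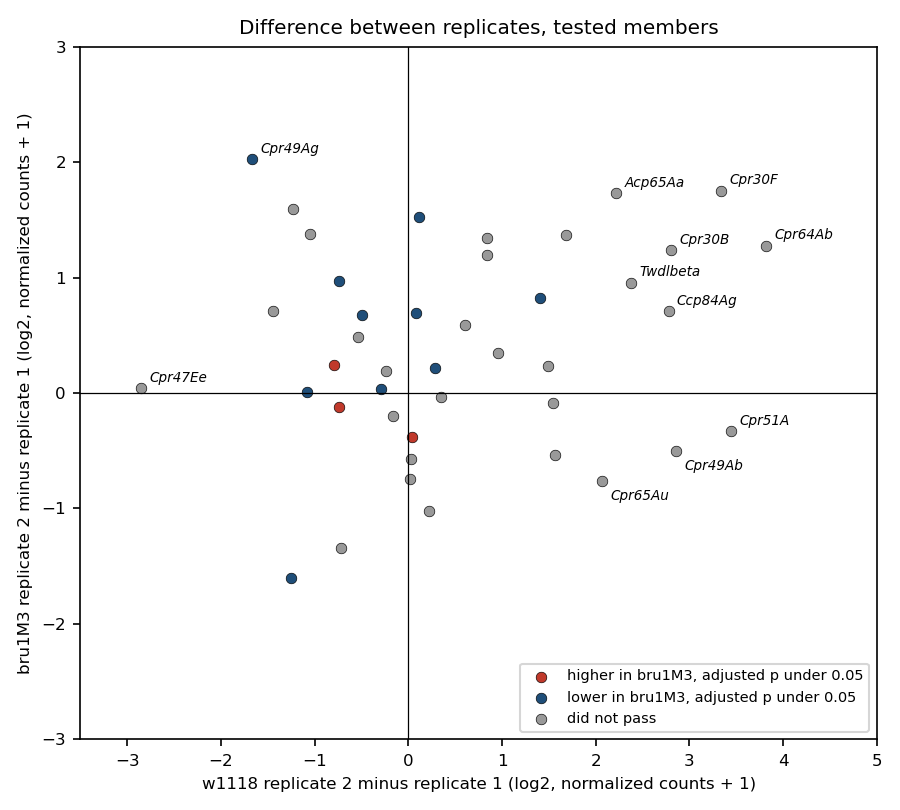
Difference between the 2 replicates of each genotype for the 42 tested members (log2 of normalized counts + 1, replicate 2 minus replicate 1), with w1118 on the x axis and bru1M3 on the y axis. Named points differ by at least 2 in a genotype. 9 of them lie at the right, higher in w1118 replicate 2, while the called members lie within 2 on both axes, apart from Cpr49Ag. The spread between replicates also enters the error of the limma test that made the calls.

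Many cuticle protein genes stand in tandem groups, and 26 of the 47 members lay within 10000 bp of another member, in 10 clusters. Neighbours lay on the same side in some clusters and on opposite sides in others. Cpr97Ea and Cpr97Eb were both lower, Cpr62Bb and Cpr62Bc were both below w1118 without overlap, and so were the 3 genes Cpr76Bb, Cpr76Bc and Cpr76Bd, of which only Cpr76Bb passed. In the Ccp84A group, whose genes are named here after their values were seen, Ccp84Ab had 41.6 and 36.1 normalized counts in bru1M3, against 13.6 and 12.1 in w1118 (log2 fold change 1.53 ± 0.49, limma adjusted p = 0.0638). Its neighbour Ccp84Aa had 5.46 and 1.54 in bru1M3, against 18.7 and 11.0 in w1118 (log2 fold change -1.92 ± 0.86, limma adjusted p = 0.155). The pair thus lay on opposite sides without overlap, neither past the threshold. Whether reads were shared or split between these neighbours was not tested. The cluster of Cpr64Aa to Cpr64Ad had 2 positive and 2 negative log2 fold changes, and Cpr47Ea and Cpr47Ee, from a cluster of 4, had opposite signs.

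By chromosome arm, the calls were spread over 2R (0 higher and 3 lower of 12), 3L (1 and 3 of 16) and 3R (2 and 4 of 11), with 0 calls among the 2 members on 2L, Cpr on 2L being left out of these counts. The 3 lower members on 2R, Lcp1, Cpr50Ca and Cpr49Ag, all passed the filter only through the w1118 libraries. Exonic length did not set the called members apart by range: the 3 higher members spanned 604 to 1607 bases, the 10 lower ones 650 to 3427 bases and the 29 others 457 to 4525 bases. None of the 3 higher members had another member within 10000 bp, while 6 of the 10 lower ones and 18 of the 29 others did. The lower members thus had neighbours about as often as those not called.

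Summed over the 46 genes without Cpr, cuticle protein reads were lower in bru1M3. They came to 329 and 340 nuclear RPM in bru1M3 (95% Wilson intervals 321 to 337 and 332 to 348), against 627 and 608 in w1118 (610 to 644 and 595 to 622). These intervals cover counting error only, and the ratio of the means was 0.541. Without Cpr62Bb the sums were 169 and 159 in bru1M3 and 239 and 330 in w1118, still without overlap. The direction depends on the reads in the denominator: with mitochondrial reads included, the sums were 193 and 241 per 1000000 of all reads in bru1M3 and 172 and 221 in w1118, and the genotypes overlapped.

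**Figure D5:**
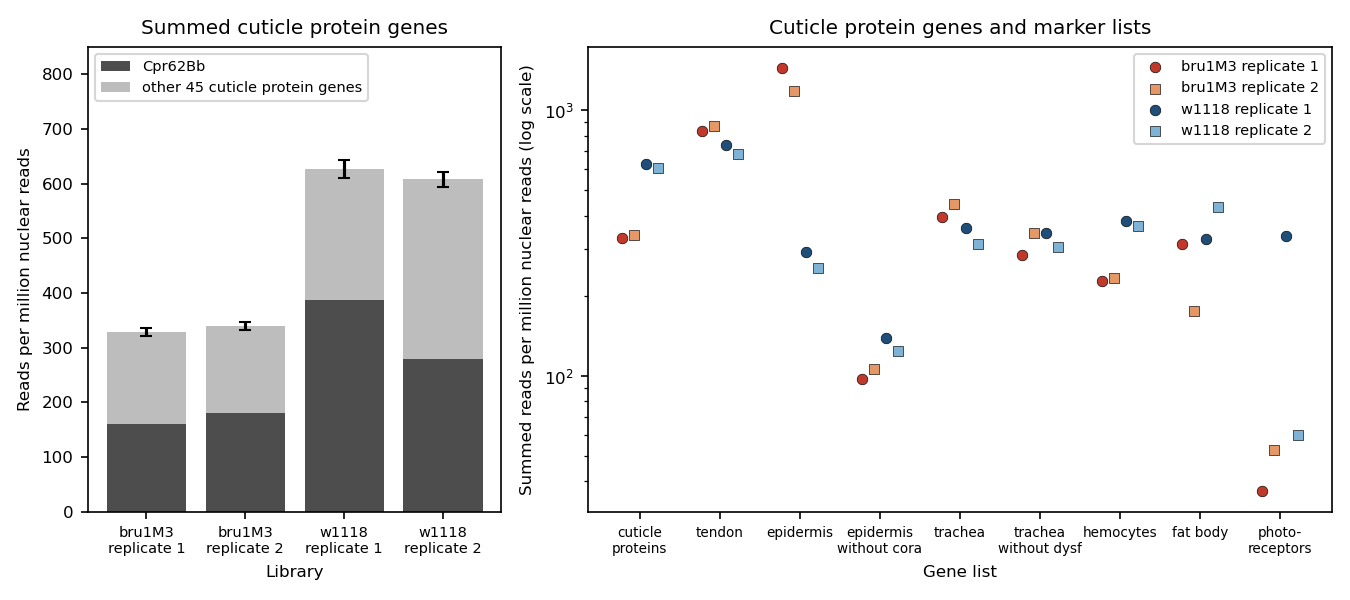
Summed reads per 1000000 nuclear reads in each library, left as bars for Cpr62Bb and the other 45 cuticle protein genes without Cpr (error bars are 95% Wilson intervals of the sum), and right as points on a log axis for the same sum and for marker lists. The cuticle protein sums lie at 329 and 340 in bru1M3, below 627 and 608 in w1118, while the tendon and tracheal sums are slightly higher in bru1M3. The tendon sums include how, which was itself higher, and are not given without it. The tracheal sums overlap without dysf.

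Markers of the cells that make cuticle went in both directions beside these sums. Of the 12 tendon markers listed, 10 were tested, 2 were higher and 1 was lower, with a median log2 fold change of -0.15 and sums of 833 and 870 nuclear RPM in bru1M3, against 740 and 682 in w1118. The tendon transcription factor stripe (sr) had 468 and 462 normalized counts in bru1M3, against 56.2 and 50.4 in w1118 (log2 fold change 3.10 ± 0.24, limma adjusted p = 0.000283). The RNA-binding protein gene how was also higher (log2 fold change 1.43 ± 0.19, limma adjusted p = 0.00260), whereas Thrombospondin (Tsp), an attachment site matrix protein, was lower (-1.66 ± 0.28, limma adjusted p = 0.00708). The counts of how, 2994 and 2804 in bru1M3 against 1247 and 930 in w1118, are part of the tendon sums. Both bru1M3 libraries lay below both w1118 libraries for 5 of the 10 tested tendon markers and above them for 3. Over all tested genes, 31.6% lay below and 32.9% above, and limma called 12.8% higher and 9.33% lower. Of the 8 epidermal markers, 6 were tested and 1 was higher, the septate junction gene coracle (cora), at 18333 and 18127 normalized counts in bru1M3, against 2175 and 1770 in w1118 (log2 fold change 3.22 ± 0.18, limma adjusted p = 0.000106). Without cora the epidermal sums were 97.1 and 106 nuclear RPM in bru1M3, against 139 and 124 in w1118, and 1 marker, forked (f), was at 0 in w1118 replicate 1. All 7 tracheal markers were tested and 1 was higher, the tracheal transcription factor dysfusion (dysf), with 1520 and 1621 normalized counts in bru1M3, against 204 and 135 in w1118. Without dysf the tracheal sums were 286 and 346 in bru1M3 and 345 and 305 in w1118, which overlapped.

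Sums of hemocyte, neuronal and tubular muscle markers were lower in bru1M3 beside the cuticle protein sums. The calls in these lists stand beside 12.8% higher and 9.33% lower over all tested genes. The 6 hemocyte markers summed to 227 and 234 nuclear RPM in bru1M3, against 381 and 368 in w1118, with 0 higher and 3 lower (Hml, NimC1 and eater). The 6 neuronal markers summed to 140 and 163 in bru1M3, against 307 and 513 in w1118, with 0 higher and 3 lower (Syt1, nSyb and futsch). Both tubular muscle markers, Act79B and TpnC41C, were lower, with sums of 118 and 162 in bru1M3, against 311 and 449 in w1118. Of the 9 fat body markers 7 were tested, 1 was higher and 2 were lower, with 4 of the 7 log2 fold changes positive and a median of 0.94. The fat body sums pointed the other way, at 313 and 175 in bru1M3 and 327 and 433 in w1118, and the list's most highly counted gene, the larval serum protein gene Lsp1gamma, was among the lower. Of the 6 flight muscle markers 1 was higher, sallimus (sls), and 0 were lower. Of the 9 photoreceptor markers 8 were tested and 0 passed in either direction by limma, although 3 had an unadjusted p under 0.05, and edgeR and DESeq2 each called 0. The part that the makeup of the dissected tissue plays in the cuticle protein values was not tested.

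Across 5 lists of other genes of cuticle formation, 43 genes were tested, and the 4 that passed were all lower (9.30%, beside 9.33% lower over all tested genes). Of 15 other cuticle matrix genes listed, 10 were tested and 2 were lower, with a median log2 fold change of -0.46. Vajk3 had 214 and 235 normalized counts in bru1M3, against 878 and 585 in w1118, and Vajk2 had 205 and 358 in bru1M3, against 645 and 532 in w1118. Both were below w1118 without overlap (log2 fold changes -1.67 ± 0.24 and -1.11 ± 0.29, limma adjusted p = 0.00359 and 0.0343). Resilin, the gene of the elastic cuticle protein, had 8.19 and 16.1 in bru1M3 and 6.81 and 14.2 in w1118 and did not pass (limma adjusted p = 0.869).

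Among the 10 chitin synthesis and assembly genes, all tested, 1 was lower and the median log2 fold change was -0.20. That gene was krotzkopf verkehrt (kkv), the epidermal chitin synthase, with 62.1 and 80.7 normalized counts in bru1M3, against 221 and 187 in w1118 (log2 fold change -1.51 ± 0.29, limma adjusted p = 0.0105). Cht5, a chitinase and the most highly counted gene of that list, had 27240 and 37230 in bru1M3 and 31802 and 38533 in w1118, which overlapped. Of 12 sclerotization and pigmentation genes, which make and use the catecholamines that harden and colour cuticle, 11 were tested and 1 was lower, with a median of -0.31. It was tan (t), which releases dopamine from its beta-alanine conjugate, at 24.6 and 16.1 in bru1M3, against 97.0 and 70.1 in w1118 (log2 fold change -2.00 ± 0.43, limma adjusted p = 0.0176).

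The hormone-response and timing genes of cuticle deposition gave 0 calls among 8 tested by limma, and likewise 0 by edgeR and DESeq2, with 1 at an unadjusted p under 0.05. All 8 had a negative log2 fold change, with a median of -0.46, among them ftz-f1 (174 and 185 normalized counts in bru1M3, against 247 and 213 in w1118) and the ecdysone receptor gene EcR (169 and 186 in bru1M3, against 230 and 207 in w1118). The zona pellucida domain genes of the apical matrix gave 0 calls by limma, edgeR and DESeq2 among the 4 of 10 that could be tested, with 0 at an unadjusted p under 0.05 and a median log2 fold change of -0.15.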

How the data were processed

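mRNA-Seq of IFM from 1 d adults was available for bru1M3 and w1118 flies, with 2 libraries a genotype. The authors aligned reads with STAR 2.7.3a, indexed them with SAMtools 1.1 and counted them per gene with Subread 2.0.0 on BDGP6.22 with annotation dmel_r6.32. They deposited the signal of each gene as counts divided by 1 DESeq2 size factor per library. Low values were whole multiples of what 1 read is worth in 100% of entries (within 0.01 reads), which gave back the reads and the depth of each library. The table had 10628 rows, of which 2 repeated an identifier.

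Genes with at least 10 normalized counts in at least 2 of the 4 libraries were tested with limma 3.58.1 in R 4.3.3 (empirical Bayes with a trend) on log2(normalized count + 1), with Benjamini-Hochberg adjustment over all 9228 genes and a threshold of 0.05. On this scale the fold changes of low genes depend on the added 1. In 2 against 2 libraries an exact permutation test of a single value cannot go below p = 0.333, so no such test is given. edgeR 4.0.16 and DESeq2 1.42.0 on the recovered reads, other scalings, filters and pseudocounts, a replicate block and leaving out each library were alternatives. The scripts were tested on simulated data. Positions and exonic lengths came from Ensembl release 115 on the same assembly, which enclosed all 99 exon bins of the members. Levels per length were recovered reads per kilobase of annotated exon per 1000000 reads of nuclear genes.

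Members, gene lists and tests were chosen with earlier results of these data known. Members named were the 15 of highest mean, those past the threshold, the 5 with the widest replicates, untested members reaching 10 in a library, and Cpr, with exceptions said where they occur. Genes named from the other lists were those past the threshold or of high mean, and Resilin, ftz-f1 and EcR were named after their values were seen. Marker lists covered tendon, epidermis, trachea, flight muscle, tubular muscle, fat body, hemocytes, neurons and photoreceptors. Columns of fold changes and p-values of the authors' own comparisons were not used, nor were 4 per-library exon columns whose names match no label.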

Additional observations from a re-analysis of the deposited data

How the results depend on the processing

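The 13 calls among the cuticle protein genes were all kept with a pseudocount of 10, without a filter, under quantile normalization, equal medians or equal totals of nuclear genes, with robust empirical Bayes, and by edgeR and DESeq2 on the recovered reads. A pseudocount of 0.1 lost Cpr49Ag, and a minimum of 50 kept 8 calls, since the other 5 genes were not tested there. Equal totals of nuclear genes moved the median of all genes to -0.13. Over all genes, 1185 were higher and 861 lower, against 1095 and 1196 under quantile normalization and 945 and 1132 under equal totals of nuclear genes.

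An adjusted p under 0.01 left 4 lower members, and 668 higher and 223 lower genes in all. A pseudocount of 10 gave 5 higher members and a median log2 fold change over the members of -0.40, and no filter gave a median of -0.34. Same-numbered libraries share only a number in the labels, and their deviations were correlated at r = 0.03 over all genes and 0.15 over the 42 tested members. With the replicate block, 5 members were higher and 12 lower, adding Cpr47Ee, Cpr51A, Acp65Aa and Cpr67B, and all 13 calls were kept. Leaving out each replicate in turn, with the lone library assumed to vary like the other genotype, gave 0 to 6 higher and 1 to 9 lower members, 475 to 998 higher and 126 to 505 lower genes in all, and a median of -0.86 to -0.35.

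The ratio of summed reads per 1000000 nuclear reads over all 47 genes was 0.585 (0.570 to 0.601 without a replicate). It was 1.19 per 1000000 of all recovered reads, 0.643 on the deposited normalized counts, 0.541 without Cpr, 0.635 without Cpr62Bb and 0.688 as the median over members. The log2 fold change of Cpr50Cb turned to 0.056 under quantile normalization. Without a replicate, signs turned for Ccp84Ae (-0.28 to 1.41), Ccp84Ag (-0.12 to 2.65), Cpr30B (-1.49 to 1.31), Cpr30F (-0.59 to 2.75), Cpr49Ac (-0.15 to 0.42), Cpr49Ae (-0.49 to 1.05), Cpr50Cb (-0.80 to 0.64), Cpr64Ac (-0.80 to 0.57), Cpr64Ad (-0.54 to 0.81), Cpr65Au (-0.47 to 1.60), TwdlG (-0.32 to 1.25) and Twdlbeta (-0.28 to 2.10), none of them called. The cause of these changes was not tested beyond the smaller number of genes or libraries.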
